A study of Mus musculus with 13 samples.

Results

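The genes described here encode 55 developmental transcription factors of 7 families: 8 paired-box factors (Pax), 5 sine oculis homeobox factors (Six2, Six3, Six4, Six5 and Six6), 6 distal-less homeobox factors (Dlx), 8 LIM homeobox factors (Lhx), 14 SRY-box factors (Sox), 6 GATA zinc finger factors (Gata) and 8 T-box factors (Tbx). They were chosen by gene symbol and looked up in the deposited ChIP-seq peak lists. Of the 18562 genes that appear in any of the 6 lists, 36 were members of this set, and the other 19 members appeared in none. The cells were 4T1, a metastatic mouse mammary cancer line from a spontaneous tumor of a BALB/cJ mouse. Control cells (sg-Ctrl) carried a non-targeting sgRNA. Knockout cells (KO) carried an sgRNA against exon 5 of Nup210, which encodes a nuclear pore protein, and came from 1 clone, KO-N13. Both kinds of cells expressed the sgRNA stably from a lentiviral vector with puromycin resistance and were given Cas9 transiently from an adenovirus. H3K27me3 and H3K4me3 were profiled in both kinds of cells, and NUP210 and nuclear pore proteins (NPC, antibody MAb414) in sg-Ctrl cells, with 1 library each. A single library stood for each condition, so the cells could not be compared by a test. The intervals printed with the values cover counting error alone. The KO libraries hold 1 clone, and what comes from the knockout and what comes from the clone cannot be told apart.

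These factors specify tissues and organs in the embryo, and each is normally transcribed in few cell types. In cells that do not use them, such genes are typical targets of Polycomb repressive complex 2, which places H3K27me3 on their chromatin, whereas H3K4me3 marks the start sites (TSS) of active or poised genes. Promoters that hold both marks are called bivalent, a state known best from embryonic stem cells. In mammary epithelium Gata3 is the luminal cell factor, Sox9 and Sox10 mark progenitor cells, and Tbx2 and Tbx3 act in the early mammary bud.

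Peaks of H3K4me3 were listed within 4 kb of a TSS, and peaks of the other targets over gene bodies. Bases are given for 6 genes that stand for the chromatin classes found below. They are the 250 before a RefSeq transcript start (GRCm38.p6, the strand of the gene, 5′ to 3′). Each start lay at most 16 bp from a TSS of the peak lists. For Gata3, Dlx1 and Lhx4 it lay inside the RefSeq span of the gene, which begins further upstream. Each CpG dinucleotide is in capitals, since CpG-rich promoters are the usual place of H3K4me3 and of Polycomb binding. Gata3 (chr2:9878601-9878850, minus strand), Sox4 (chr13:28953700-28953949, minus strand) and Dlx1 (chr2:71529195-71529444, plus strand) had H3K4me3 without H3K27me3. Lhx4 (chr1:155742028-155742277, minus strand) was the bivalent gene. Tbx20 (chr9:24774304-24774553, minus strand) and Sox1 (chr8:12395269-12395518, plus strand) had H3K27me3 in the gene body and no H3K4me3, the latter in KO cells.
Gata3: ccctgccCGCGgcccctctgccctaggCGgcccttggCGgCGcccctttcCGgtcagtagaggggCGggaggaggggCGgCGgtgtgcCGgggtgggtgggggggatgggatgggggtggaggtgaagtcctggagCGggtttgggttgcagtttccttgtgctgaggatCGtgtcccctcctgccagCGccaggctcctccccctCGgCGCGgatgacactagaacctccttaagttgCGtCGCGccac
Sox4: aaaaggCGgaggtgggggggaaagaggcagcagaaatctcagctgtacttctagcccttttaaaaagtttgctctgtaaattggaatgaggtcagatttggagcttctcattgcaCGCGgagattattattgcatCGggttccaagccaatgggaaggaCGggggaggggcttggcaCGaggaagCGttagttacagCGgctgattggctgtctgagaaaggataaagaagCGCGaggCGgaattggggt
Dlx1: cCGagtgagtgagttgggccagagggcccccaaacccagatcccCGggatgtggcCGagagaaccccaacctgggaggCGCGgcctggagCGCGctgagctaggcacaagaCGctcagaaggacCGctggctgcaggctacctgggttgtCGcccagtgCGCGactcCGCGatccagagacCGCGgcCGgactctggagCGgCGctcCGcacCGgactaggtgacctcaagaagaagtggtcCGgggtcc
Lhx4: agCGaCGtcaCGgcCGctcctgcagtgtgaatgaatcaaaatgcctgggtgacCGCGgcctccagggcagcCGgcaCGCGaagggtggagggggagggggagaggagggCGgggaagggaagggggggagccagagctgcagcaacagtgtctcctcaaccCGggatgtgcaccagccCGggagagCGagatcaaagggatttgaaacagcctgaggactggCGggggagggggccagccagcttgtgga
Tbx20: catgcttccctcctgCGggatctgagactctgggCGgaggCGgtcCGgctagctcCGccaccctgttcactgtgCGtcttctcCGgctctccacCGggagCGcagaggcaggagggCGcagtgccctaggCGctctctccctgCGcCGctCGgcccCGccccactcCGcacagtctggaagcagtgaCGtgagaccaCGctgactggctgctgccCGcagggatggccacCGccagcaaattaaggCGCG
Sox1: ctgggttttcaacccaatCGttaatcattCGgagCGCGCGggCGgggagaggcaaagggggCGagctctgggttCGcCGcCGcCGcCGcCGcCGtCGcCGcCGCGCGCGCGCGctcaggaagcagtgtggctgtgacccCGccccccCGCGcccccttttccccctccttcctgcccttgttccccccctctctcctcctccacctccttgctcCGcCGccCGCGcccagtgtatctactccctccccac
The dinucleotide CG, which reads the same on both strands, occurred 19 times before Gata3, 11 times before Sox4, 22 times before Dlx1, 14 times before Lhx4, 22 times before Tbx20 and 29 times before Sox1. The median over 32851 RefSeq promoters of the same length was 6, and 92.1% of them held at least 1. Among these 6 sequences, those of Sox1 and Tbx20 held at least as many as those of Gata3 and Dlx1. The printed bases of Gata3, Sox4, Dlx1 and Lhx4 lay inside an H3K4me3 peak in both cells. A count over all members was void, because 37 of the 55 (67.3%) had a promoter sequence.

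Read depth differed between libraries. In sg-Ctrl and KO cells, H3K27me3 peaks summed to 7719297 and 26811061 reads and H3K4me3 peaks to 26236314 and 24873356 reads, and in sg-Ctrl cells NUP210 peaks summed to 7194586 and NPC peaks to 5866175 reads. Levels are therefore given as scaled reads per kb, the ChIP reads per kb of peak divided by how many times larger the ChIP library was than its IgG library. Peak lengths and the joining of peaks were not scaled. The H3K27me3 library of KO cells was 3.16 times as deep as that of sg-Ctrl cells, and the share of depth in peak lengths was not tested. Enrichment over IgG was high for H3K4me3 (median fold 49.96 and 34.6 in sg-Ctrl and KO cells), lower for H3K27me3 (2.57 and 2.39), and near 1 for NUP210 (1.19) and NPC (1.10). At the TSS of Nup210 itself H3K4me3 was present in both cells, with 885 and 913 reads, a place that does not report on the edit in exon 5. Of 6 epithelial marker genes, 5 had H3K4me3 at the TSS in both cells (Epcam, Cdh1, Krt8, Krt18 and Krt14, not Krt5), against 1 of 4 immune genes (Cd68), 0 of 4 endothelial genes and 2 of 4 fibroblast genes (Pdgfra and Col1a1). Transcript levels were not analysed here.

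In sg-Ctrl cells 22 of the 55 genes had H3K4me3 at the TSS, 14 had H3K27me3 on the gene body, 3 were in both counts, and 22 had neither mark. In KO cells 22 had H3K4me3, 15 had H3K27me3, 3 had both and 21 had neither. The 3 with both marks were 13.6% of the members with H3K4me3 in each cell type, beside 5.81% of all genes with H3K4me3 in sg-Ctrl and 4.83% in KO cells. Of the 3, Lhx9 for H3K27me3 and Sox6 for H3K4me3 were below 2-fold over IgG in both cells. Among the 36 members in any list, the shares with H3K27me3 were 38.9% and 41.7%, beside 26.8% and 27.6% of all genes listed. For H3K4me3 the share was 61.1% in both cells, beside 67.1% and 67.0% of all genes listed. The families differed in which mark they held. The Pax family held H3K27me3 in 5 of 8 genes (Pax2, Pax3, Pax5, Pax8 and Pax9) and H3K4me3 in none. The Dlx, Gata and Tbx families each had H3K4me3 in 3 genes. The Sox family had H3K4me3 in 8 of 14 in sg-Ctrl cells and in 7 in KO cells.

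**Figure D1:**
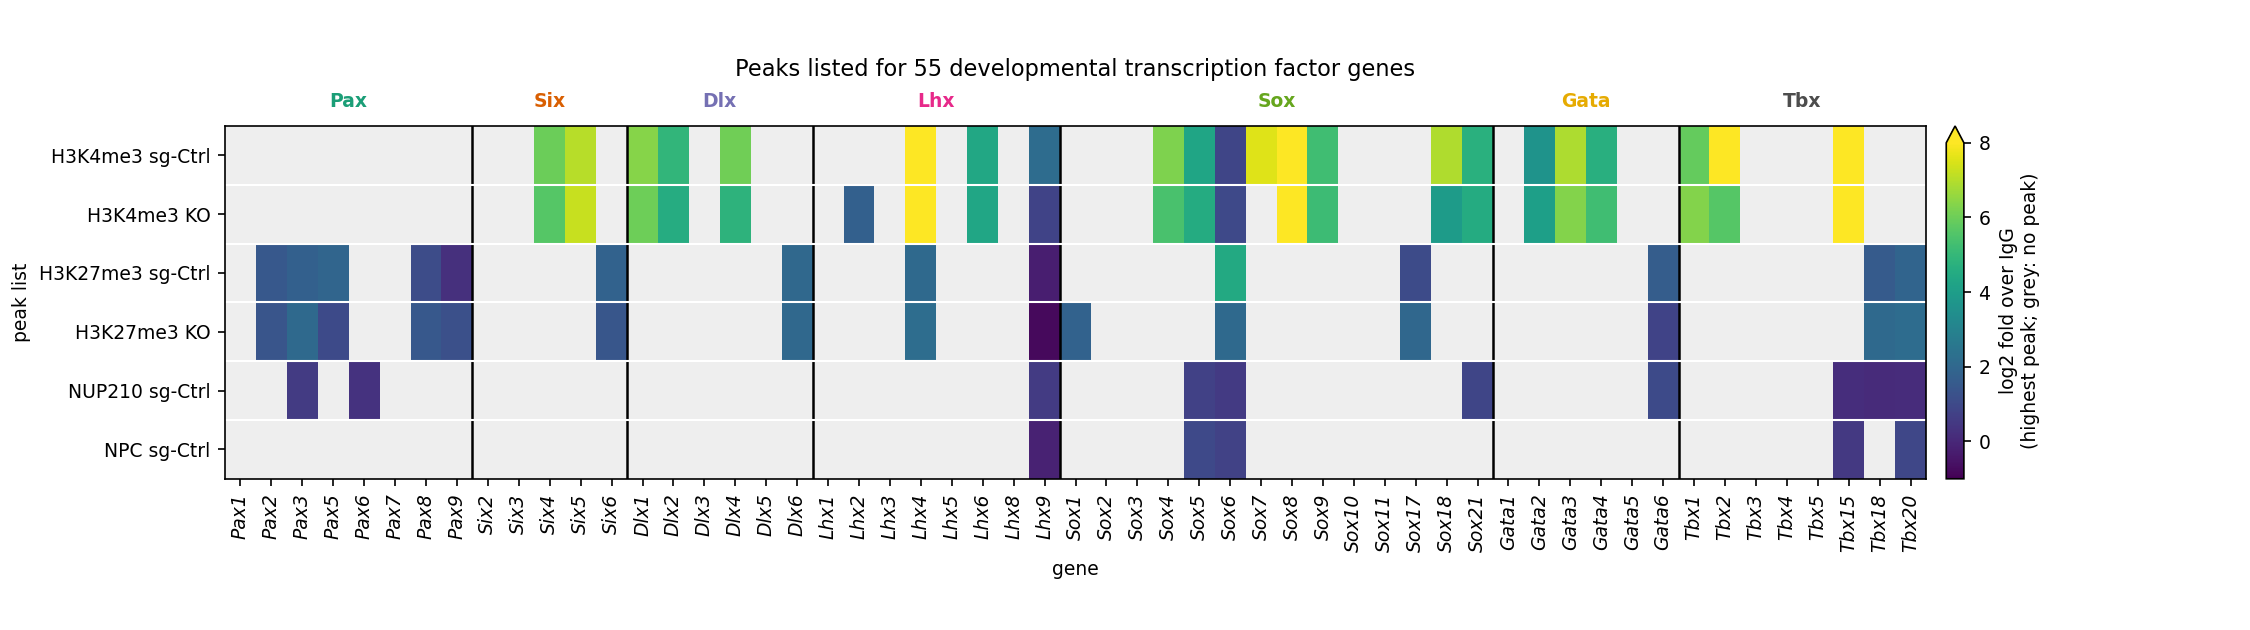
The 55 genes (columns, by family) in the 6 peak lists (rows), coloured by the log2 fold over IgG of the gene's highest peak, with grey where no peak is listed. The Pax columns are grey in both H3K4me3 rows, and Lhx4, Lhx9 and Sox6 are coloured in both H3K4me3 and H3K27me3 rows.

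Genes with H3K4me3 alone in both cells were Six4, Six5, Dlx1, Dlx2, Dlx4, Lhx6, Sox4, Sox5, Sox8, Sox9, Sox18, Sox21, Gata2, Gata3, Gata4, Tbx1, Tbx2 and Tbx15. Those with H3K27me3 alone in both cells were Pax2, Pax3, Pax5, Pax8, Pax9, Six6, Dlx6, Sox17, Gata6, Tbx18 and Tbx20. Neither mark was listed in either cell type for Pax1, Pax6, Pax7, Six2, Six3, Dlx3, Dlx5, Lhx1, Lhx3, Lhx5, Lhx8, Sox2, Sox3, Sox10, Sox11, Gata1, Gata5, Tbx3, Tbx4 and Tbx5. Among these were Sox10, Tbx3 and Dlx3, a factor of epidermis and placenta. A gene in no list is one without a called peak, which the depth of 1 library may have missed. Of the 41 members without H3K27me3 in sg-Ctrl cells, 4 (Six3, Dlx5, Lhx1 and Sox1) had a peak listed for another gene within 10 kb, and the median distance to one was 277 kb. Of the 40 without it in KO cells, 3 did (Pax6, Six3 and Dlx5), and the median was 232 kb. These distances were not taken over all genes. In sg-Ctrl cells the peak next to Dlx5 was that of its neighbour Dlx6, 5.80 kb away. That next to the forebrain gene Six3 was a 2 kb peak over Six3os1, 5.61 kb away.

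3 members were in different classes in the 2 cells: Sox1, Lhx2 and Sox7. Sox1, a factor of neural progenitors, had no H3K27me3 peak in sg-Ctrl cells and a 207 kb peak in KO cells (chr8:12399000-12605999, 20330 reads, 3.57-fold over IgG). That peak touched the last 555 bp of the gene and was also listed for Gm5607 and Spaca7. In sg-Ctrl cells 3 shorter peaks listed for these neighbours covered 46 kb, or 22.2%, of the same stretch, and the closest began 5.45 kb beyond Sox1. Lhx2, a factor of eye, forebrain and hair follicle, had an H3K4me3 peak of 0.8 kb in KO cells only, with 78 reads and 17 IgG reads (3.40-fold), 2.91 kb from the TSS. Sox7, a factor of endothelium, had an H3K4me3 peak of 0.6 kb in sg-Ctrl cells only, with 50 reads and no IgG reads, 2.31 kb from the TSS. Both H3K4me3 peaks were thus short, held few reads and did not reach the TSS base. Of all genes with H3K27me3 in either cell type, 15.1% had it in KO cells alone and 12.6% in sg-Ctrl cells alone. For H3K4me3 these shares were 1.89% and 2.02%.

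H3K4me3 at the TSS could be compared for the 21 members with a peak in both lists. The median log2 ratio (KO over sg-Ctrl) was -0.11 over the members and -0.50 over all 12197 genes with peaks in both lists. The ratio was below 0 in 12 members and above 0 in 9, while 88.7% of all genes were below 0, and 19 of the 21 members lay above the median of all genes. Scaling instead by the reads of peaks shared by both lists moved each ratio up by 0.42, which put the members' median at 0.31 and that of all genes at -0.08, and left 4 members below 0 (Sox4, Gata3, Sox6 and Dlx4). This scaling shifts all genes alike. With the total reads of the peak in place of reads per kb, 15 of the 21 members lay above the median of all genes, and with the deposited fold over IgG also 15. By the criterion of 2-fold, 1 member was lower in KO cells (Sox4), beside 9.66% of all genes, and 1 was higher (Tbx2), beside 0.525%.

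The members had lower H3K4me3 levels than all genes. Their median level in scaled reads per kb was 289 (sg-Ctrl) and 237 (KO), against 543 and 382 over all genes. When all genes were cut by their sg-Ctrl level into 4 classes of equal size, 13 of the 21 members fell in the lowest. There the median log2 ratio was 0.18 for the members and -0.18 for all genes. In the next class it was -0.34 for 4 members and -0.40 for all genes, and in the one above -0.21 for 3 members and -0.55 for all genes. In the highest class Gata3 had -0.57 and all genes -0.75. The genes past 2-fold were spread unevenly over these classes. The lowest class (3050 genes), which holds Tbx2, had 63 of the 64 genes at least 2-fold higher in KO cells. Of the 1178 genes at least 2-fold lower, 599 were in the highest class (3049 genes) and 155 in the class of Sox4 (3049 genes). The median of all genes was lower in each higher class, the members' median lay above it in each, and the share that starting level has in the members' ratios was not tested.

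**Figure D2:**
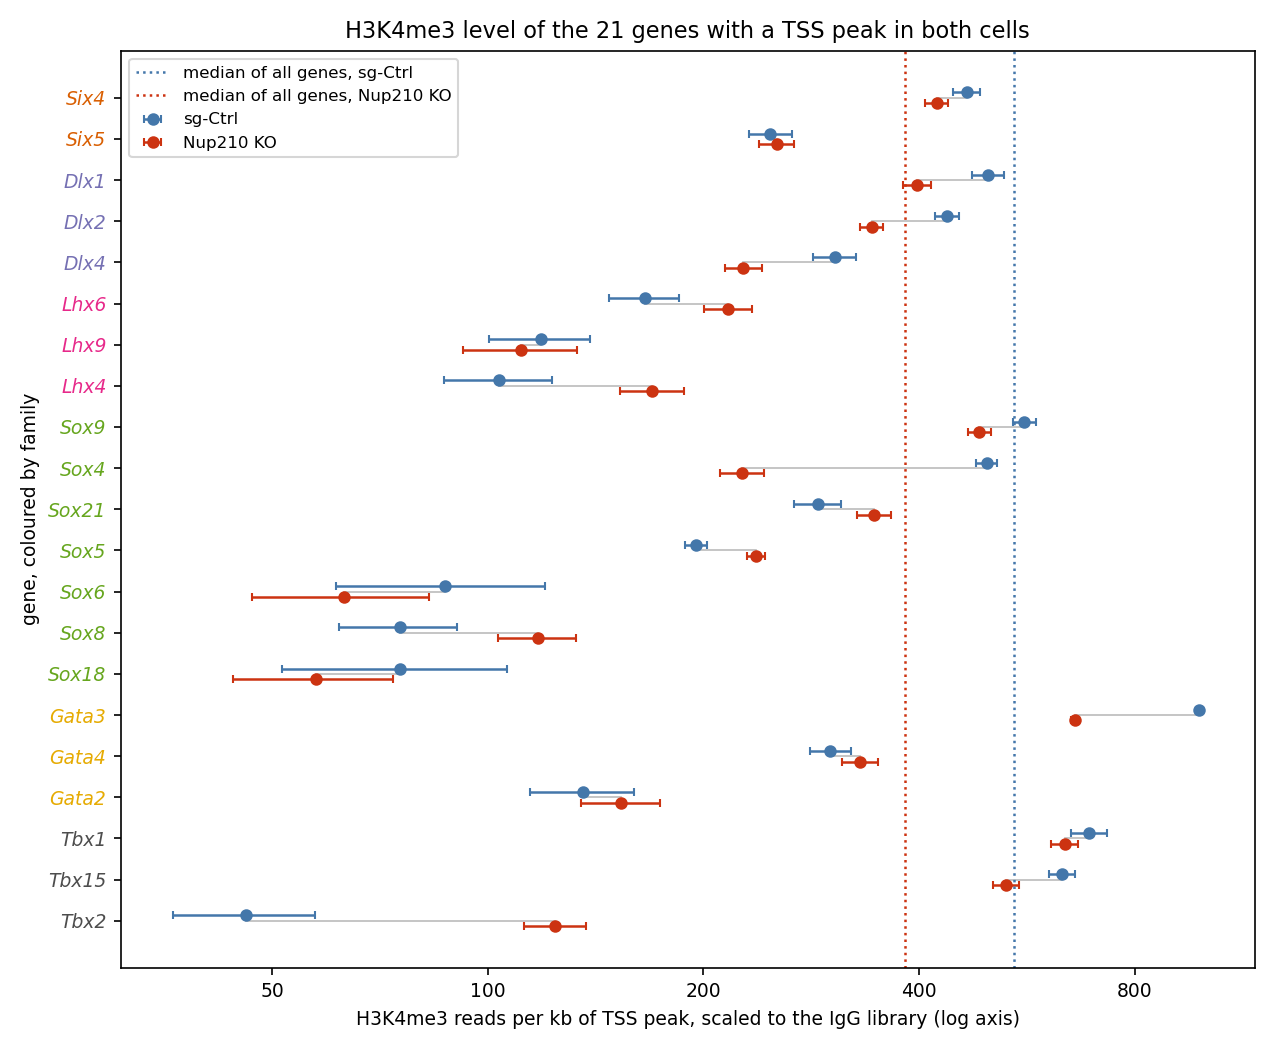
H3K4me3 level in scaled reads per kb of TSS peak (log axis) for the 21 genes with a peak in both cells, sg-Ctrl in blue and Nup210 KO in red, with 95% exact Poisson intervals that cover counting error only and dotted lines at the medians of all genes. Gata3 lies highest in both cells, and Tbx2 goes from the lowest level in sg-Ctrl cells (46.0) to 124 in KO cells. For Sox4 the densest peak of each list is drawn, which is not the same peak in both.

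Among the Gata genes, Gata3 had the highest H3K4me3 level of all members. Its peak was 24.2 kb wide in sg-Ctrl and 24.8 kb in KO cells, wider than the peaks of 99.9% of genes in sg-Ctrl cells, and ran beyond the 8 kb window around the TSS. Its read counts were 25256 in sg-Ctrl and 22073 in KO cells, or 984 and 660 scaled reads per kb, a log2 ratio of -0.57 (95% counting interval -0.60 to -0.55). This ratio was the lowest of the family, and 42.4% of all genes had a lower one. The peak was also listed for 4930412O13Rik and 9230102O04Rik. Gata4, a factor of heart and endoderm, had 893 and 1159 reads, and a log2 ratio of 0.14 (0.01 to 0.27). Gata2, a factor of blood progenitors, had the highest ratio of the family, 0.18 (-0.13 to 0.48), from 144 and 248 reads. Gata6, a further factor of heart and endoderm, had H3K27me3 alone, over 5 kb in sg-Ctrl cells (196 reads, 3.17-fold over IgG) and 6 kb in KO cells (479 reads, 1.75-fold). Gata1 and Gata5 had neither mark.

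Among the Sox genes, the largest difference lay at Sox4, a factor of progenitor cells and tumors. The peak over its TSS held 3266 reads across 6.2 kb in sg-Ctrl cells and 1621 reads across 6.6 kb in KO cells, or 497 and 182 scaled reads per kb, a log2 ratio of -1.45 (-1.53 to -1.36). A second peak, 3.52 kb from the TSS in sg-Ctrl and 3.92 kb in KO cells, had 826 reads in sg-Ctrl and 794 in KO cells, a log2 ratio of -0.30 (-0.44 to -0.15). The rule that takes the densest peak of each list compared the first peak of sg-Ctrl cells with the second of KO cells and gave -1.13, so the matched value is the one that describes the promoter. With shared-peak scaling the matched ratio was -1.02.

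Sox9, which marks mammary progenitor cells, also had a pair of peaks with unequal ratios. The peak over the TSS had 2856 reads in sg-Ctrl and 2746 in KO cells (561 and 485 scaled reads per kb), a log2 ratio of -0.21 (-0.29 to -0.13). The neighbouring peak, 4 kb wide in both cells and 2.99 and 3.39 kb from the TSS, had 1557 reads in sg-Ctrl and 558 in KO cells, a log2 ratio of -1.83 (-1.97 to -1.69). Its fold over IgG was 29.95 and 5.52, and with shared-peak scaling the ratios of the TSS peak and the neighbour were 0.21 and -1.40. The counts given for genes past 2-fold use 1 peak per gene and do not hold this difference.

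The other Sox genes with H3K4me3 were at low levels in sg-Ctrl cells. Sox5, a factor of cartilage, had a low and wide peak of 14.4 kb in sg-Ctrl and 14.2 kb in KO cells, with 2982 and 4534 reads and a log2 ratio of 0.28 (0.21 to 0.35). Sox21, a factor of neural tissue, had 674 and 1305 reads (289 and 346 scaled reads per kb) and a ratio of 0.26 (0.12 to 0.40). In KO cells 42.4% of genes had a lower level than Sox21. Sox8, a factor of neural crest, had the highest ratio of the family, 0.64 (0.31 to 0.97), from 112 and 253 reads in a peak also listed for 2810468N07Rik. The intervals of these 3 genes lay above 0. Those of Sox18 and Sox6 held 0, with 32 and 62 reads for the endothelial factor Sox18, whose peak lay 3.96 kb from the TSS in sg-Ctrl cells, and 37 and 51 reads for Sox6.

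Sox6, the partner of Sox5 in cartilage, held the longest H3K27me3 cover of the set. It had 11 peaks of 383 kb in sum in sg-Ctrl cells and 8 peaks of 485 kb in KO cells, all inside the gene body. Several peaks of sg-Ctrl cells were joined in the deeper library of KO cells, where a peak of 133 kb met 3 of them (60, 7 and 43 kb). A KO peak of 63 kb at one end of this cover (chr7:115474000-115536999, 4013 reads, 3.296-fold) met none. 2 peaks had the same start and end in both cells and allow a direct comparison of reads. One of 28 kb (chr7:115596000-115623999) held 715 and 3124 reads, a log2 ratio of 0.47 (0.35 to 0.59), and one of 30 kb (chr7:115782000-115811999) held 748 and 2252 reads, a ratio of -0.07 (-0.19 to 0.05). These stretches of 1 gene had ratios whose intervals did not overlap. In sg-Ctrl cells the H3K4me3 peak of Sox6 was 0.4 kb wide and 1.84-fold over IgG, in KO cells 0.6 kb and 1.99-fold, and it did not overlap the H3K27me3 peaks. Sox17, a factor of endoderm and endothelium, had H3K27me3 over 25 kb in sg-Ctrl and 38 kb in KO cells, the latter in 2 peaks. Of this, 1.413 and 1.485 kb lay inside the gene, and the KO peak of 10 kb touched 72 bp of it. Sox2, Sox3, Sox10 and Sox11 had neither mark.

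Among the Tbx genes, Tbx2 stood apart from all other members. Its TSS peak had 78 reads across 1.6 kb in sg-Ctrl cells and 402 across 2.4 kb in KO cells, or 46.0 and 124 scaled reads per kb, a log2 ratio of 1.44 (1.08 to 1.80). Of all genes, 99.9% had a lower ratio. The level stayed low even so, as 6.88% of genes in KO cells were lower. The peak had 0 IgG reads in sg-Ctrl cells and 6 in KO cells, so the deposited fold over IgG, which puts 0.25 in place of 0 reads, ran the other way (294 and 49.7). The peak was also listed for 2610027K06Rik, with which its reads are shared. Tbx1, a factor of the pharyngeal arches, had 1171 and 2063 reads 2.43 and 1.83 kb from its TSS, and a ratio of -0.11 (-0.22 to -0.01). Tbx15, a factor of skeleton and fat, had 2285 and 2282 reads and the lowest ratio of the family, -0.26 (-0.34 to -0.18). Tbx3, Tbx4 and Tbx5 had neither mark.

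Tbx18 and Tbx20 were the T-box members with H3K27me3. Tbx20, a factor of heart muscle, lay at one end of a peak of 194 kb in sg-Ctrl and 188 kb in KO cells (chr9:24576000-24769999 and chr9:24576000-24763999), which was also listed for Cypt4, Cypt9, Cypt10 and Dpy19l2. It held 9049 and 32859 reads, or 55.1 and 65.3 scaled reads per kb of peak, with 3.74-fold and 4.51-fold enrichment. Tbx18, a factor of epicardium and sinus node, had a peak of 43 kb (1431 reads, 2.98-fold) in sg-Ctrl and of 51 kb (7088 reads, 4.22-fold) in KO cells.

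The Dlx, Lhx and sine oculis homeobox genes with H3K4me3 had moderate to low levels. Dlx1 and Dlx2, factors of forebrain interneurons that lie side by side on chromosome 2, had 1483 and 1929 reads, and 2689 and 2682 reads, in sg-Ctrl and KO cells, with log2 ratios of -0.33 (-0.43 to -0.23) and -0.35 (-0.43 to -0.27). The main Dlx2 peak lay 2.96 kb from its TSS and was shared with Dlx1as, and the one over the TSS had 112 and 88 reads. Dlx4 had the lowest ratio of its family, -0.42 (-0.55 to -0.29), from 841 and 1103 reads in a peak also listed for A730090H04Rik. All 3 intervals lay below 0 and the ratios above the median of all genes, and with shared-peak scaling the ratios of Dlx1 and Dlx2 were above 0 (0.09 and 0.07). Dlx6, a factor of jaw and inner ear, had H3K27me3 over 6 kb in sg-Ctrl (214 reads, 4.14-fold) and 7 kb in KO cells (721 reads, 4.08-fold), also listed for Dlx6as1.

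Six4, a factor of muscle, had 2076 and 2853 reads (466 and 423 scaled reads per kb) and a log2 ratio of -0.14 (-0.22 to -0.06). Six5 had 842 and 1228 reads and a ratio of 0.03 (-0.10 to 0.16). Six6, a factor of eye and pituitary on the same chromosome as Six4, had H3K27me3 over 57 kb in sg-Ctrl cells and 48 kb in KO cells, with 3.56-fold and 2.68-fold enrichment. It had the largest loss of cover among the members, 9 kb, and the peak touched 2.90 kb of the gene itself. Six2 and Six3 had neither mark.

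Lhx4, a factor of pituitary and motor neurons, was the one bivalent gene in either cell type, beside 2.39% of genes with H3K4me3 in sg-Ctrl and 1.88% in KO cells. The H3K4me3 peak over its TSS (chr1:155741400-155742599 in sg-Ctrl and chr1:155741200-155742799 in KO cells) lay inside an H3K27me3 peak of 18 kb with the same ends in both cells (chr1:155740000-155757999). H3K4me3 had 132 reads in sg-Ctrl and 366 in KO cells, with no IgG reads, or 104 and 170 scaled reads per kb, a log2 ratio of 0.71 (0.42 to 1.01). H3K27me3 in the shared peak had 436 and 1072 reads, a log2 ratio of -0.36 (-0.52 to -0.20), where the median over 832 such peaks of all genes was -0.18. At this promoter H3K4me3 was thus higher and H3K27me3 lower per scaled read in KO cells, in 1 library each, and both directions were kept with shared-peak scaling (1.13 and -0.49). A second H3K27me3 peak inside the gene was 7 kb wide in sg-Ctrl and 4 kb in KO cells. Its level per kb of peak was higher in KO cells, 51.3 and 58.4 scaled reads per kb (4.22-fold and 4.67-fold over IgG).

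Of the other Lhx genes, Lhx6, a factor of interneurons, had 316 and 642 H3K4me3 reads and a log2 ratio of 0.39 (0.19 to 0.59). Lhx9, a factor of gonad and limb, had the lowest ratio of the family, -0.09 (-0.45 to 0.26), from 151 and 120 reads. Its H3K27me3 peak of 7 kb had fewer reads than IgG predicts (0.855-fold and 0.579-fold, FDR 1 in both lists), so Lhx9 is listed for H3K27me3 without enrichment. Lhx1, Lhx3, Lhx5 and Lhx8 had neither mark.

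**Figure D3:**
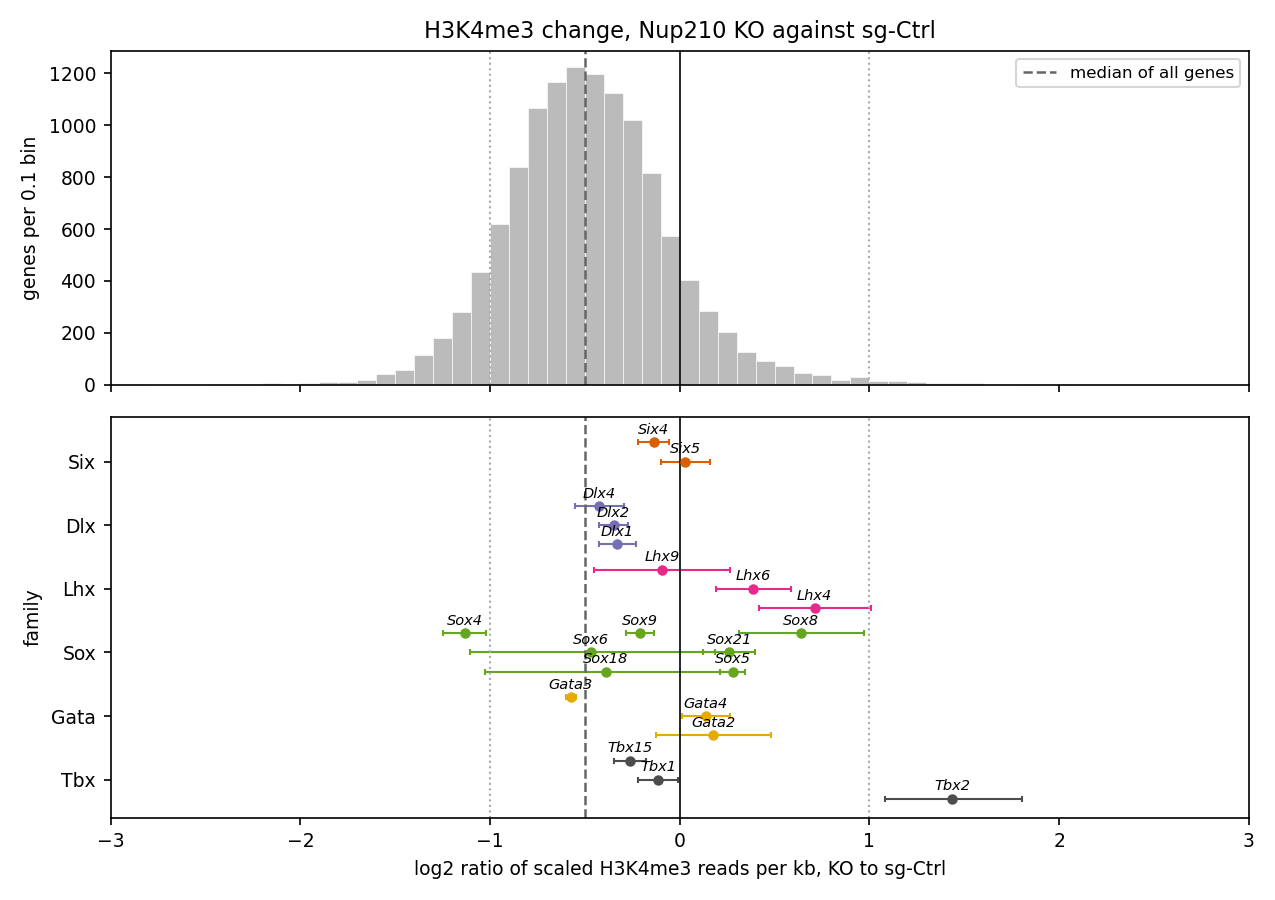
Log2 ratio of scaled H3K4me3 reads per kb, KO to sg-Ctrl, as a histogram of all 12197 genes (top) and for the 21 members by family with 95% counting intervals (bottom). The dashed line is the median of all genes (-0.50), the dotted lines are 2-fold, and the 19 members to the right of the dashed line include all but Sox4 and Gata3.

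The Pax genes were marked by H3K27me3 in the gene body. Pax3, a factor of muscle and neural crest, had a peak of 99 kb in sg-Ctrl cells (chr1:78090000-78188999, 3456 reads, 3.37-fold) and of 246 kb in KO cells (chr1:77942000-78187999, 31291 reads, 4.19-fold). The KO peak was 147 kb longer, on the side away from the TSS, where no peak of any gene was listed in sg-Ctrl cells, and inside the gene the cover was 87.7 and 86.7 kb. The lists hold peaks that touch a gene, so a sg-Ctrl peak beyond the gene would not appear in them. Pax9, a factor of tooth and thymus, had a peak of 8 kb in sg-Ctrl cells (153 reads, 1.19-fold, FDR 0.0175) and of 17 kb in KO cells (1579 reads, 2.28-fold), which also touched Slc25a21.

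The other Pax genes differed less in length. Pax2, a factor of kidney, had 2 peaks in each cell type, 57 kb in sum in sg-Ctrl and 61 kb in KO cells. Pax5, the B cell factor, had 8 kb in both, with 214 and 476 reads, and Pax8, a factor of thyroid and kidney, had 11 kb in both, with 173 and 798 reads. The Pax8 peaks overlapped by 7 kb, and the one of KO cells ended 2.57 kb short of the TSS that the one of sg-Ctrl cells covered. Pax1, Pax6 and Pax7 had neither mark.

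Over the 14 members with H3K27me3 in both cells, the covered length was 928 kb in sg-Ctrl and 1195 kb in KO cells, 1.29 times as much, beside 1.27 times over the 4234 genes with peaks in both. These lengths were not scaled for the greater depth of the KO library. It was longer in KO cells for 8, shorter for 3 (Six6, Lhx4 and Tbx20) and equal for 3 (Pax5, Pax8 and Lhx9). The cover was at least 2-fold longer for 2 members (Pax3 and Pax9), beside 22.3% of all genes, and at least 2-fold shorter for 0, beside 8.67%. Inside gene bodies the members' cover was 655 and 756 kb, and without Sox6 272 and 271 kb. The members' median log2 ratio of reads per kb over the joined region of both lists was 0.12, and that of all genes 0.13. Shared-peak scaling shifted each such ratio by -0.12, which put both medians near 0 (-0.003 and 0.008). The median log2 ratio of covered length was 0.16 for both. The members' median length itself was shorter, 25 kb in sg-Ctrl and 30 kb in KO cells, against 36 and 49 kb over all genes.

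**Figure D4:**
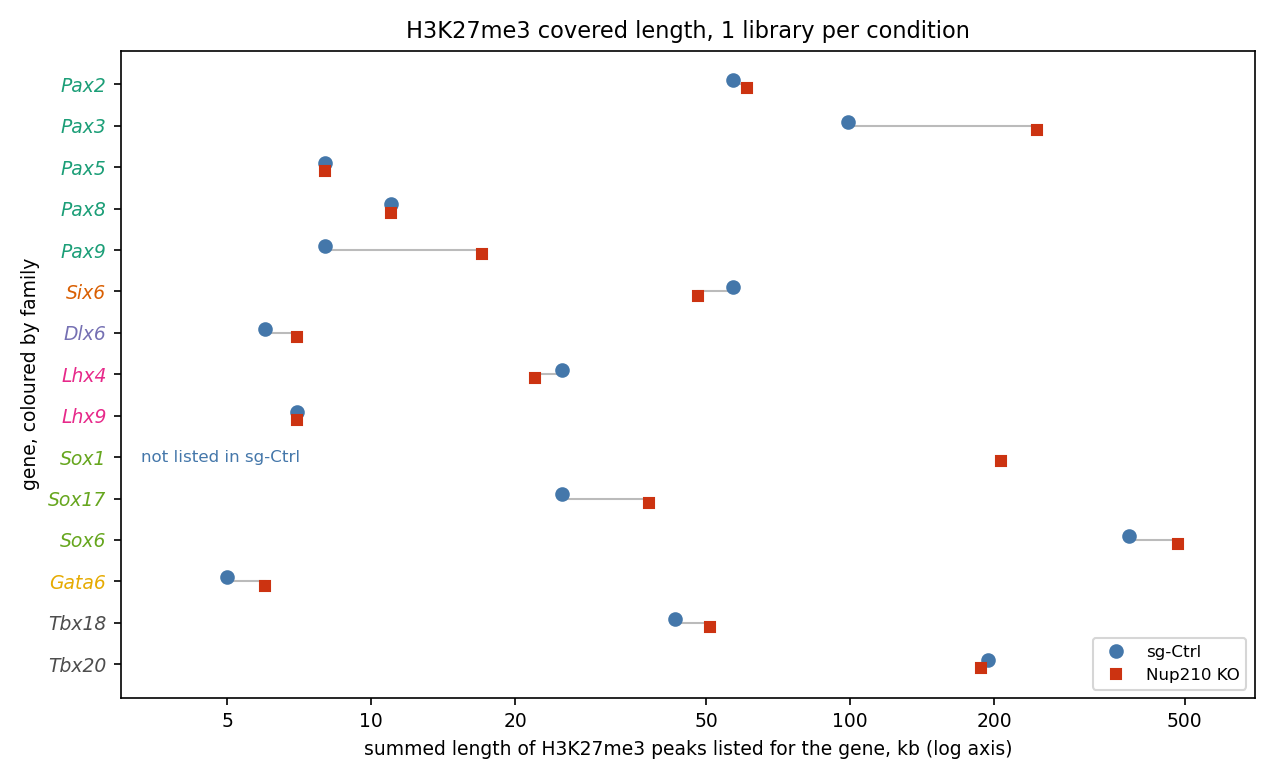
Summed length of the H3K27me3 peaks listed for each gene in kb (log axis), sg-Ctrl as blue circles and Nup210 KO as red squares, 1 library per condition. Pax3 goes from 99 to 246 kb, Sox6 from 383 to 485 kb, Six6 from 57 to 48 kb, and Sox1 is not listed in sg-Ctrl cells.

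In most members the H3K27me3 peaks stopped short of the start site, a count made after the values had been seen. A peak covered a TSS of the gene in 4 of 14 members in sg-Ctrl cells (Pax8, Lhx4, Sox6 and Sox17), or 28.6%, beside 56.7% of all 4971 genes with H3K27me3. In KO cells it did so in 3 of 15 (Lhx4, Sox6 and Sox17), beside 61.6% of all 5116 genes. In the others the nearest edge lay between 2.06 kb (Six6) and 16.6 kb (Pax2) from the TSS in sg-Ctrl cells, and between 2.06 kb (Six6) and 11.4 kb (Lhx9) in KO cells. At Pax2 the distance was 16.6 and 4.61 kb, and at Tbx20 it was 4.30 and 10.3 kb, so the edge moved toward the TSS in one gene and away from it in the other. The CpG-rich 250 bases printed for Tbx20 and Sox1 lay outside the listed H3K27me3 peaks of both cells, and those of Lhx4 inside. Whether gene length has a part in these shares was not tested.

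**Figure D5:**
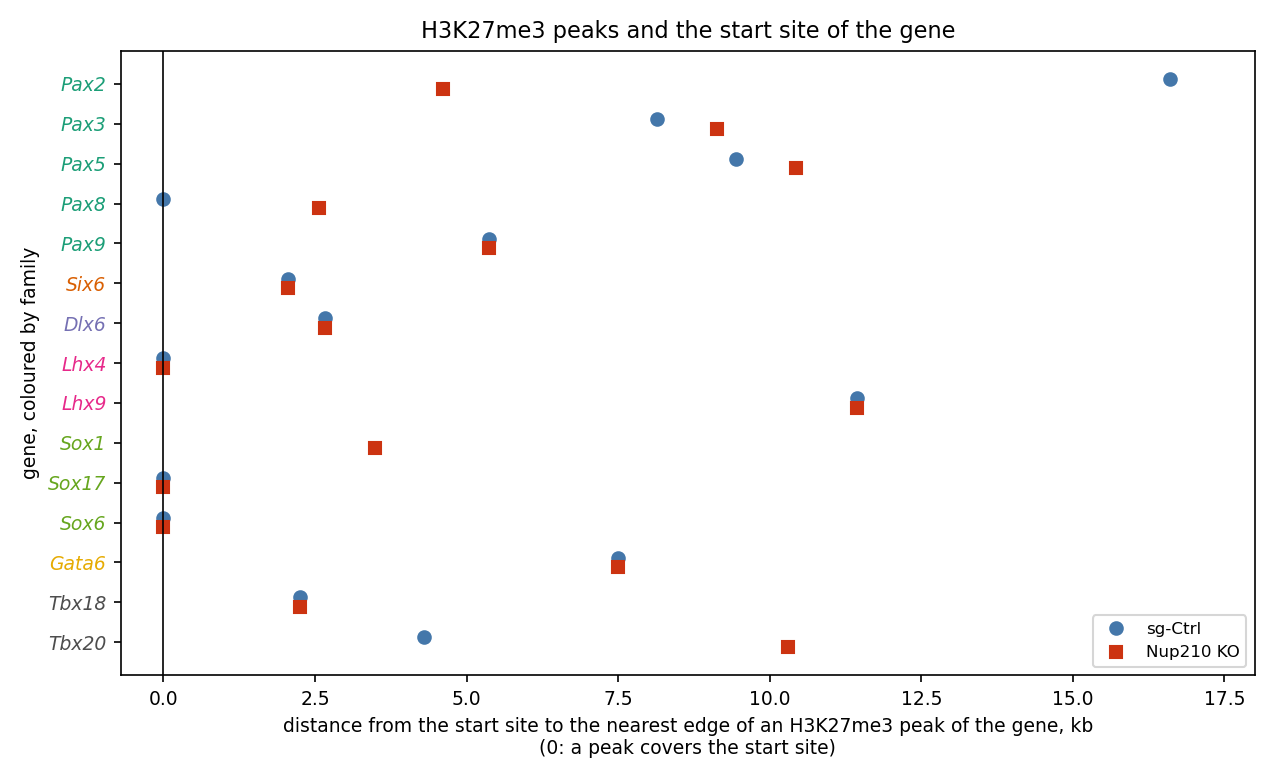
Distance in kb from the TSS to the nearest edge of an H3K27me3 peak of the gene, 0 where a peak covers the TSS, sg-Ctrl as blue circles and Nup210 KO as red squares. Lhx4, Sox6 and Sox17 lie at 0 in both cells and Pax8 in sg-Ctrl cells only, while the other genes lie at 2.06 kb or more.

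NUP210 peaks in sg-Ctrl cells touched 10 members (Pax3, Pax6, Lhx9, Sox5, Sox6, Sox21, Gata6, Tbx15, Tbx18 and Tbx20), 27.8% of the 36 in any list, beside 33.9% of all genes listed. NPC peaks touched 5 (Lhx9, Sox5, Sox6, Tbx15 and Tbx20), or 13.9%, beside 30.8% of all genes listed. All 5 also had NUP210, but the share with NUP210 over all genes with NPC was not taken. The enrichment of NUP210 was low: the highest was 2.02-fold at Gata6 (104 reads, 51 IgG reads), followed by 1.82-fold at Sox21. For NPC the highest was 1.98-fold, at Sox5. The NPC peak of Lhx9 (0.917-fold) did not pass an FDR of 0.01, which left 4 of the 5 members, and 3149 of the 5715 genes with NPC. The NUP210 peaks of Tbx15 (1.14-fold), Tbx20 (0.933-fold and 1.10-fold) and Tbx18 (0.829-fold and 1.07-fold) did not pass an FDR of 0.01, which left 7 of the 10 members, and 4659 of the 6291 genes with NUP210. Of the 14 members with H3K27me3 in sg-Ctrl cells, 6 had NUP210 (42.9%), beside 46.6% of all genes with H3K27me3, and of the 22 with H3K4me3, 5 had NUP210 (22.7%), beside 26.3%.

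The same measures were taken for related genes from lists that are not members. Further genes of these families with H3K27me3 in sg-Ctrl cells were T (brachyury), Pax4, Lmx1a, Mga, Sox30, Tbx19 and Tbx22, and no share is drawn from them. The one bivalent gene among them was Mga, a T-box factor of the Myc network. Over all genes with H3K4me3, 2.39% were bivalent in sg-Ctrl and 1.88% in KO cells. Of 14 binding partners of the families (Eya, Dach, Ldb, Lmo and Zfpm genes), 8 had H3K4me3 and 7 had H3K27me3 in sg-Ctrl cells. The shares over all genes listed were 67.1% and 26.8%. Eya1, a coactivator of sine oculis homeobox factors, had H3K4me3 levels of 1475 and 556 scaled reads per kb, a log2 ratio of -1.41. It was the one of 7 with both peaks past 2-fold lower, beside 9.66% of all genes. Eya2 had H3K27me3 in sg-Ctrl cells only, and Lmo3 in KO cells only. Lmo2, a partner of Gata factors in blood cells, was bivalent in both cells. All 11 genes of Polycomb repressive complex 2 had H3K4me3 and none had H3K27me3 in either cell type, beside 67.1% and 26.8% of all genes listed in sg-Ctrl cells. Of these, 2 were at least 2-fold lower for H3K4me3 in KO cells, Suz12 (-1.25) and Mtf2 (-1.20), beside 9.66% of all genes. Their sg-Ctrl levels were 1480 and 1065 scaled reads per kb. Suz12, Mtf2 and Eya1 thus lay in the highest of the 4 level classes, where 599 of 3049 genes were at least 2-fold lower. The median log2 ratio over the 11 was -0.55, beside -0.50 over all genes. Shared-peak scaling moves each of these H3K4me3 ratios up by 0.42.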

How the data were processed

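The data were 6 deposited ChIP-seq peak lists of 4T1 cells, each from 1 library. The authors called peaks with SICER against IgG, the window being 200 bp for H3K4me3 and 1000 bp otherwise. For each peak the authors deposited raw counts (ChIP reads and IgG reads), the p-value and FDR, and the fold over IgG. This deposited ratio is scaled by library size and uses 0.25 where a peak has no IgG reads. The submitters' processing notes name Trimmomatic, Bowtie2, Picard and STAR.

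Lists were used as deposited, with positions as given there, and peaks repeated for several transcripts were collapsed. For 14 of 19 members with a listed gene body, a start or end lay within 50 bp of the GRCm38.p6 annotation. ChIP to IgG library ratios were recovered from counts and folds (H3K27me3 0.847 and 2.68, H3K4me3 1.06 and 1.35, sg-Ctrl before KO). Library depth beyond these and the reads in peaks is unknown. For genes with several TSS peaks, the one with most reads per kb was used. Bivalency required an overlap of 1 bp between peaks of the same gene. Intervals at 95% are exact Poisson intervals for read counts and exact conditional binomial intervals for ratios, and cover counting error only.

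Every member was placed in a class. Full values were given for members that differ in class between cells, for the lowest and highest H3K4me3 ratio and the largest H3K27me3 gain and loss of each family, and for Gata3, Sox4, Sox9, Sox10, Tbx2, Tbx3, Pax8, Six4, Dlx3 and Lhx4. Members and lists were chosen with earlier results of these data known. On simulated H3K4me3 lists of 8192 genes, 132 of 132 genes set lower and 135 of 135 set higher were called, and 0 of 7925 unchanged genes. The changes were set well past 2-fold, with counting noise alone, the same peak edges and a known scale. Genes with few reads or with a shared peak were left out. The simulation therefore checks the calculation and gives no error rate for the real lists. The 3 IgG samples were used as the IgG counts of each list, and 4 RNA-seq samples were not analysed here. Scripts used scipy 1.17.1 for intervals, pandas 2.3.3 and numpy 2.4.6 for tables, and matplotlib 3.10.9 for figures, under Python 3.11.15. The alternatives tried were stricter FDR, fold and overlap limits, other scalings, other choices of peak, and autosomal genes alone. The H3K4me3 summary over further genes of the families is not reported here.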

Additional observations from a re-analysis of the deposited data

How the results depend on the processing

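Of 60 recomputed summary values, 46 stayed within 1.5 times the value given or, for medians, inside its 95% order-statistic interval, and 14 did not. Scaling by the reads of shared peaks raised the members' median H3K4me3 ratio to 0.31, left 0 members at least 2-fold lower (1.25% of all genes), and put 3 at least 2-fold higher (Tbx2, Lhx4 and Sox8, beside 1.73%). That 0 rests on the densest-peak rule, and the matched TSS peak of Sox4 stayed past 2-fold lower (-1.02). With total reads of the peak 2 were at least 2-fold higher (Tbx2 and Lhx4, beside 1.78%). With the deposited fold over IgG 3 were at least 2-fold lower (Dlx4, Sox18 and Tbx2, beside 17.5% of all genes), and the log2 ratio of Tbx2 reversed to -2.56, since its sg-Ctrl peak has 0 IgG reads. Without a required overlap, 3 members were bivalent in sg-Ctrl and 3 in KO cells (Lhx4, Lhx9 and Sox6). A fold of at least 2 left 1 member with NUP210 (Gata6) and 0 with NPC. It left 12 and 13 members with H3K27me3, and an FDR of at most 0.01 left 12 and 14, without Pax9 in sg-Ctrl cells, Lhx9 in either and, under the fold limit, Gata6 in KO cells. Inside gene bodies alone the KO cover was 756 kb against 1402 kb with Sox1, and 0 members gained 2-fold in length. Under the FDR and under the fold limit 1 member did (Pax3). With no scaling the median H3K27me3 ratio was 1.78, which holds the depth of the libraries. Peaks covering the TSS base, the overlapping KO peak, an H3K27me3 peak of any gene and peaks of equal start and end were chosen after seeing the data, and the first left 17 of 22 members with H3K4me3 in each cell type, beside 92.6% and 92.5% of all genes. No paired analysis was possible because each ChIP condition had 1 library. Of the recomputed values of single genes, 105 stayed within their interval, 103 moved beyond it and 1 reversed. Among the H3K4me3 ratios the counting intervals of Sox18 and Sox6 were the widest, and those of Sox6, Sox18, Lhx9, Gata2 and Six5 held 0.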
